A study of Mus musculus with 6 samples.

Results

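Bone marrow-derived macrophages that lack Rad21, a core subunit of the cohesin complex, were ordered cell by cell according to the strength of their interferon response after 8 h of lipopolysaccharide (LPS), and the strongest responders were compared with the weakest. The members are the 222 of 224 sequenced Rad21-/- 8 h cells that held at most 25000 unique molecular identifiers (UMIs, each standing for 1 captured transcript), out of 1362 cells in the series. For each cell a score was taken as the UMIs of 7 interferon-stimulated genes, Ifit1, Ifit2, Ifit3, Isg15, Rsad2, Usp18 and Irf7, divided by all UMIs of the cell. The 74 cells of lowest score are called weak responders, the 74 of highest score strong responders, and the 74 between them the middle group. Members were thus chosen by the measured UMIs of the score genes, which are described and not compared. All other genes were read from the same cells.

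The series holds single macrophages of 2 genotypes, Rad21 WT/WT and Rad21 lox/lox. Both carry a tamoxifen-inducible Cre recombinase (ERt2Cre) at the Rosa26 locus and are on a mixed genetic background. All groups received 200 nM 4-hydroxy-tamoxifen 96 h into the differentiation culture and were used on day 7, so the WT cells also carry active Cre, which is driven by a ubiquitous promoter. Cells of each genotype were left untreated or given 10 ng/ml LPS for 2 h or 8 h, 1 sample for each of these 6 conditions, then sorted singly into 384-well plates for MARS-Seq, a 3′ UMI method. With 1 sample per condition, and all groups of cells taken from it, no test across replicates was possible. Intervals below are 95% counting intervals and cover counting error only, and they are too narrow where a few cells hold most UMIs of a gene. No well was shared between samples. The age and sex of the donor animals are not used here.

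LPS reaches the nucleus by separate routes. Toll-like receptor 4 activates NF-kappaB directly, and through TRIF and IRF3 it turns on the gene for interferon-beta, which leaves the cell, binds the receptor IFNAR on the same and on neighbouring cells and, through the kinases JAK1 and TYK2 and the factors STAT2 and IRF9, switches on the interferon-stimulated genes. These genes encode antiviral effectors such as the IFIT proteins, ISG15 and viperin (Rsad2), chemokines, antigen-presentation proteins and GTPases that attack pathogen vacuoles. Cohesin holds chromatin loops and sister chromatids together, and its loss in macrophages serves to ask how inducible transcription depends on it.

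Score genes took a median of 0.244% of the UMIs in a weak responder (range 0.0709% to 0.300%), 0.362% in a cell of the middle group and 0.511% in a strong responder (0.409% to 1.56%). The last cell of the weak responders stood at 0.2996% and the first of the middle group at 0.301%, and the other border ran between 0.4087% and 0.409%, so that 36 cells lay within 10% of the lower border and 52 within 10% of the upper one. The groups are therefore ranges of a continuous score and not cell types. In other samples the median score was 0.0252% in untreated and 0.063% in 2 h Rad21-/- cells, and 0.117%, 0.218% and 0.988% in WT cells left untreated or given LPS for 2 h or 8 h. Of 253 WT 8 h cells of at most 25000 UMIs, 251 (99.2%) scored at or above the upper border of the Rad21-/- cells, and 1 Rad21-/- cell reached the WT 8 h median. Of 267 untreated Rad21-/- cells, 34 reached the lowest score of the weak responders and 1 reached their median, so both ranges overlapped at the lower end.

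**Figure D1:**
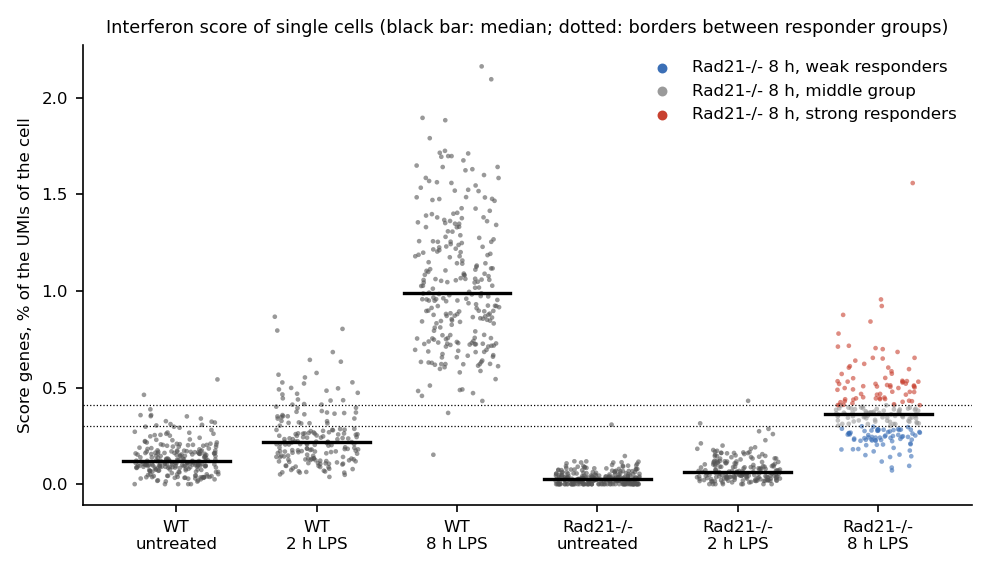
Score of every cell of at most 25000 UMIs (points; y axis, score genes in % of the cell's UMIs) in the 6 samples, with black bars at the medians and dotted lines at the borders between the groups of the Rad21-/- 8 h sample. The weak, middle and strong cells (blue, grey, red) lie around medians of 0.244%, 0.362% and 0.511%, below the WT 8 h median of 0.988%.

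Depth and remaining Rad21 RNA differed little between the groups. Weak responders, the middle group and strong responders had median depths of 6867, 7034 and 7080.5 UMIs. Rad21 UMIs were found in 3, 6 and 3 of the 74 cells of each group (4.05%, 8.11% and 4.05%, exact binomial intervals 0.844% to 11.4% for the outer groups), against 46 of 253 WT 8 h cells (18.2%, 13.6% to 23.5%). The median score was 0.372% in the 12 cells with a Rad21 UMI and 0.36% in the 210 without. A 3′ tag can come from RNA outside the deleted part, so these UMIs do not show which cells kept the gene. With every cell thinned to 4800 UMIs, which 180 cells allowed, the score UMIs averaged 18.7 in Rad21-/- 8 h and 49.9 in WT 8 h cells, and their variance was 3.56 and 5.81 times the mean, where pure counting gives a ratio of 1. That ratio grows with the mean, and the variance beyond counting, divided by the squared mean, was 0.137 in Rad21-/- and 0.0964 in WT cells. In Rad21-/- 8 h cells the highest score was 1.56%, far above the third quartile of 0.447%. The value was not recomputed without that cell, so its distance from the WT value may rest on 1 cell and was not tested.

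The groups did differ in library pool and in mitochondrial RNA. Of the 8 pools in which the wells were processed, the 4 with at least 40 cells (called A to D here) gave 23, 10, 6 and 17 cells to the weak and 13, 18, 24 and 10 to the strong responders, and mitochondrially encoded genes took a median of 7.75% of the UMIs in weak, 2.83% in middle and 5.28% in strong cells. Pool medians of that share ran from 1.85% to 11.3%. The pools hold cells of both genotypes. Ratios with groups cut within pools are given below for the counts over all genes, for most lists and for most genes that stood out, and a value without one was not freed of pool differences. The part of pools and of mitochondrial RNA in the results was not tested.

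The macrophage label was met in both groups, in which the 38 listed macrophage genes summed to a median of 31189 UMIs per 1000000 UMIs of the cell (CPM) in weak and 28505 in strong cells. Markers of other cells were near 0, with a median of 0 CPM per cell for each list. Over the weak and the strong responders, 2 of 9 listed neutrophil markers that could be measured gave 3 and 10 UMIs, 2 of 6 dendritic cell markers 13 and 17, 1 of 5 mast cell markers 2 and 6, 2 of 5 B cell markers 14 and 9, 3 of 7 T and NK cell markers 9 and 13, and 4 of 5 stromal markers 7 and 10. The other markers on these lists, and all 5 erythroid ones, were not analysed here.

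The promoters of 2 score genes and of 3 other genes that stood out are shown because they carry, or lack, the letters of an interferon-type element. Each is the 250 bases before the RefSeq start (GRCm38.p6), read 5′ to 3′ on the strand of the gene, with capitals over matches to GAAANNGAAA on either strand, overlapping matches merged. Ifit1 encodes an antiviral protein that binds foreign RNA, Isg15 a ubiquitin-like modifier, Mndal a nuclear DNA-binding protein of the interferon-inducible Ifi200 family, Cxcl10 a chemokine that draws T cells, and Il12b the p40 subunit of the cytokines IL-12 and IL-23.
Ifit1, chr19:34640639-34640888, plus strand: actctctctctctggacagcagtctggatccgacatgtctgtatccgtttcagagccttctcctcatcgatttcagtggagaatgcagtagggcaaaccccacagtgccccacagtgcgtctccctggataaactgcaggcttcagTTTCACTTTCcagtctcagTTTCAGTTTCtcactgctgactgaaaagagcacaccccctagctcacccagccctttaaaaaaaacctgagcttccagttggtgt
Isg15, chr4:156200819-156201068, minus strand: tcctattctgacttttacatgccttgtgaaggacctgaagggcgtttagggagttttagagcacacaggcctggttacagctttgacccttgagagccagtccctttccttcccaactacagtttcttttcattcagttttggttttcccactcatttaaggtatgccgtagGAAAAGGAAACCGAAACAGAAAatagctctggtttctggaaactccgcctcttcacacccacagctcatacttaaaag
Mndal, chr1:173880188-173880437, minus strand: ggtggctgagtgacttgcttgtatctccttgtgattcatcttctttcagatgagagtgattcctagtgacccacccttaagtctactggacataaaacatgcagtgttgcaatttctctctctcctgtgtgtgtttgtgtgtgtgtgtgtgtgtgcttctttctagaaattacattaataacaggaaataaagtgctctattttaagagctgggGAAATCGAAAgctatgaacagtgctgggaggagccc
Cxcl10, chr5:92348890-92349139, minus strand: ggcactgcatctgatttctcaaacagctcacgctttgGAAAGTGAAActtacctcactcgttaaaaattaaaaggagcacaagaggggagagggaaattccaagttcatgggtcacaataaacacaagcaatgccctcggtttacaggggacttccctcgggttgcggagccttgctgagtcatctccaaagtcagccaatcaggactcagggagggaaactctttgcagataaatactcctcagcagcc
Il12b, chr11:44399813-44400062, plus strand: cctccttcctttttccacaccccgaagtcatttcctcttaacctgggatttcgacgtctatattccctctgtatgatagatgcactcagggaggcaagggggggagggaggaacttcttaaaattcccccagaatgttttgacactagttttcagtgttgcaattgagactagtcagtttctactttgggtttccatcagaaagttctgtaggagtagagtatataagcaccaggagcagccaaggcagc
Isg15 holds 3 overlapping matches that begin 78, 72 and 66 bases before its start, Ifit1 holds 2 at 104 and 85 bases, Mndal 1 at 36 bases and Cxcl10 1 at 213 bases. Il12b holds none in this window. Another start of Mndal, within the same gene, has a match 54 bases before it.

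Of all 27025 genes with such windows 3.46% hold this motif, and of the 1197 measured genes with enough UMIs for a comparison 5.43% do. Among the genes higher in the strong responders it was found in 8 of the 77 with a window (10.4%), among the lower ones in 1 of 20 (5%), and among score genes in 4 of 6, Ifit1, Ifit3, Isg15 and Rsad2. In the tested genes of the wider interferon-stimulated list it was found in 13 of 38 (34.2%), and in 4 of the 14 higher ones (28.6%). An NF-kappaB-type motif, GGGNNNNNCC on either strand, is far looser: 48.7% of all genes, 66.1% of the tested genes and 63.6% of the higher genes hold it. Cxcl10 has 3 matches to it, 2 of them overlapping, and Il12b none. Of the 9 higher NF-kappaB-type list members with a window, 0 hold the interferon-type motif. These are matches of letters, and Ccl5, Ccl2, Nos2 and Usp18 have no window in the table used.

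The score genes themselves were each higher in the strong responders, as the rule required. Isg15, the most abundant of them, stood at 1468 CPM in the weak, 2403 in the middle and 3567 in the strong responders, and made up most of the score. It was seen in every cell of both outer groups. The others were sparser, from Ifit1, with 38 UMIs in the weak and 102 in the strong responders, to Rsad2, with 151 and 382. As a further description, each was read after splitting the cells on the other 6. The log2 ratio of strong over weak responders was then 0.62 for Isg15, 0.67 for Irf7 and 0.90 for Rsad2 and for Usp18. It was 1.03 for Ifit1, 1.29 for Ifit2 and 1.31 for Ifit3. All score genes were chosen as interferon-stimulated genes, so these ratios describe the score and are no separate evidence about the responders. Isg15 gave 792 of the 1276 score UMIs of the weak responders, so every split but its own rested mostly on it, and the ratios do not show that each gene goes with each other one.

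Outside the score genes, 1832 genes had at least 100 UMIs over both groups. Of these, 102 (5.57%) were at least 1.5-fold higher in the strong responders and 55 (3.0%) at least 1.5-fold lower, and their counting intervals lay above and below 0 respectively. The median log2 ratio over all 1832 was -0.01. The middle group lay between the outer ones for 88 of the 102 and 40 of the 55. These genes were chosen by the distance between the outer groups of the same cells. A middle value between them, and an interval that leaves out 0, were therefore largely given by the choice. With groups cut within the 4 largest pools, 72 of the 102 were higher in all 4 pools and 26 in 3, and 27 of the 55 were lower in all 4 and 17 in 3. Over all genes tested, 10.7% were higher and 8.73% lower in all 4 pools. Pooled within-pool groups kept 73 of the 102 past 1.5-fold but only 19 of the 55, so the ratios of the lower genes shrank more within pools. Of the 102, 24 belong to the interferon lists and 45 to any list. Of the 55, 0 belong to an interferon list, 6 to any list, 5 are mitochondrially encoded and 19 are gene models named Gm and a number.

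**Figure D2:**
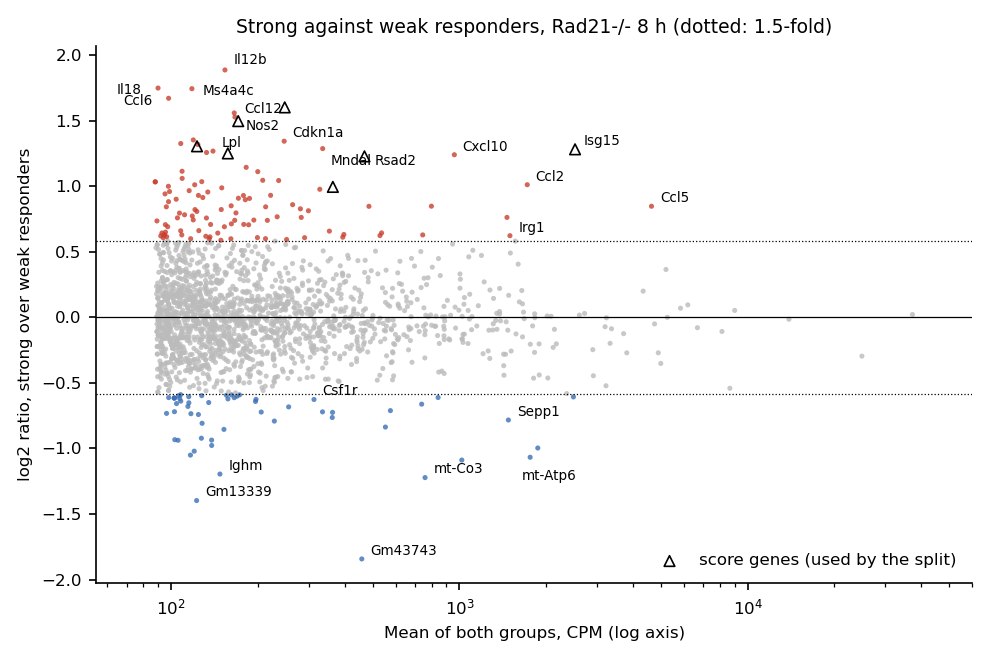
Log2 ratio of strong over weak responders (y axis) against the mean CPM of both groups (log x axis) for the 1832 genes tested, with red points at least 1.5-fold higher, blue points at least 1.5-fold lower, and open triangles for the score genes that defined the split. Il12b leads the higher genes at 1.89 and Gm43743 the lower ones at -1.84, while Ccl5 is the most abundant of the labelled genes.

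Chemokines of the interferon type gave the highest median of any list. Of 5 tested, 4 were higher and 0 lower, where 5.57% and 3.0% of all genes tested were. The median log2 ratio was 1.01 (0.87 within pools) against -0.01 over all genes. Cxcl10 stood at 571 CPM in the weak, 796 in the middle and 1349 in the strong responders, a log2 ratio of 1.24 (interval 1.05 to 1.44, and 1.15 within pools). In the other samples it was 6.68 CPM in untreated and 1114 in 2 h Rad21-/- cells, and 39.4, 2676 and 4781 in WT cells untreated and at 2 h and 8 h. Strong responders thus held more than weak ones and less than WT 8 h cells. Ccl5, which attracts T cells and monocytes and was the most abundant gene named here, rose from 3313 CPM in the weak through 4511 in the middle to 5959 in the strong responders (log2 ratio 0.85, 0.76 to 0.93), and the within-pool ratios were close together at 0.95, 0.84, 0.79 and 1.01. Ccl5 was 8.5 CPM in untreated Rad21-/- cells and 11387 in WT 8 h cells.

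The monocyte attractant Ccl2 was 1140, 2026 and 2297 CPM in the 3 groups (log2 ratio 1.01, 0.87 to 1.15, and 0.62 within pools), with 0.44 and 0.33 in pools B and C against 1.34 and 1.54 in pools A and D. Ccl12, a neighbour of Ccl2 on chromosome 11 with a similar role, had 45 UMIs in the weak and 144 in the strong responders (log2 ratio 1.56, 1.08 to 2.09, and 1.46 within pools). Its UMIs came from few cells, 72 of the 144 from 5 cells, and it was seen in 37.8% of weak and 43.2% of strong cells. Pool D gave a ratio of -0.34 for it. Ccl7, the remaining member tested, had a log2 ratio of 0.33 (0.09 to 0.57). The chemokine Ccl6, on no list, had a ratio of 1.67 (1.03 to 2.39), but 1 strong responder held 50 of its 87 UMIs, and without the top cell of each group the ratio was 0.60. In RefSeq (GRCm38.p6) Ccl2 lies at chr11:82035577-82037452, Ccl12 at chr11:82101845-82103399, Ccl5 at chr11:83525778-83530518 and Ccl6 at chr11:83587886-83593087, all within the CC chemokine cluster of that chromosome, while Cxcl10 lies at chr5:92346638-92348889.

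Of 44 tested genes of the wider interferon-stimulated list, 15 were higher and 0 lower, and 23 were higher in all 4 pools. Over all genes tested, 5.57% were higher, 3.0% lower and 10.7% higher in all 4 pools. The median log2 ratio was 0.34 (0.41 within pools), and the summed list stood at 10558, 11995 and 14477 CPM in the 3 groups. Ms4a4c, a membrane protein of the MS4A family, was seen in 28.4% of weak and 64.9% of strong cells and rose from 53.7 through 134 to 182 CPM (log2 ratio 1.74, 1.16 to 2.41, and 1.29 within pools). No strong responder held more than 6 of its UMIs, so the difference was spread over many cells. Of the DNA-binding Ifi200 family, Mndal rose from 195 through 240 to 476 CPM (1.29, 0.96 to 1.63), with ratios of 1.497, 1.38, 1.01 and 1.17 in the 4 pools, and Ifi203 from 66.7 through 66.9 to 171.8 CPM (1.35, 0.80 to 1.96). Ifi200 genes are close copies of each other, and reads that fit several were left out of the counts, so their levels are uncertain. At the other end of the list, Ms4a6c had a ratio of -0.21 (-0.48 to 0.05) and the RNA helicase-like Znfx1 -0.28 (-0.83 to 0.26).

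All 5 tested guanylate-binding proteins and immunity-related GTPases had ratios above 0, 3 of them past 1.5-fold, with a median of 0.77 (0.75 within pools). Of all genes tested, 5.57% were higher by that fold, which is also the base for the sensors and MHC class I genes below. Ifi47 stood at 122.3, 153.3 and 213 CPM (0.80, 0.36 to 1.25), and the listed gene model Gm8995 at 64.9, 76.7 and 130.6 CPM (0.999, 0.41 to 1.63). Gbp3 and Gbp7 were at 0.51 and 0.38. Among the sensors of cytosolic nucleic acids, 2 of 4 were higher: Ifih1 (MDA5, a sensor of long double-stranded RNA) at 0.81 (0.29 to 1.35, and 0.52 within pools) and Trex1, a DNA exonuclease, at 0.61 (0.33 to 0.90). The related RNA sensor Ddx58 (RIG-I) stood at 0.54 and the Z-nucleic acid sensor Zbp1 also at 0.54. Of 16 tested genes of MHC class I presentation, 3 were higher, among them the immunoproteasome subunits Psmb9 (0.77, 0.25 to 1.32) and Psmb8 (0.66, 0.36 to 0.96). The chaperones Calr and Canx stood at -0.25 and -0.14.

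The machinery that makes and senses interferon was mostly too sparse or too even to separate the groups. Of 24 measured members of this list, 9 had enough UMIs, and their median ratio was 0.18. Of the 9, 0 were higher and 0 lower, where 5.57% and 3.0% of all genes tested were. Ifnb1, the ligand, gave 0 UMIs in all 222 cells, so that at most 1.35% of such cells would be seen with a UMI. The receptor chains Ifnar1 (44.5 and 39.5 CPM in the weak and the strong responders) and Ifnar2 (88.95 and 120) had intervals that included 0, as did Jak1 at 0.18 (-0.36 to 0.73) and Stat2 at 0.30 (-0.28 to 0.90). Ptpn6, the phosphatase SHP-1, stood at -0.53 (-0.90 to -0.16), and the kinase Ikbke at -0.42 (-0.89 to 0.03).

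Below the 100 UMI limit, some members had wide differences. Tyk2, the kinase bound to IFNAR1, had 11 UMIs in the weak and 32 in the strong responders (log2 ratio 1.39, 0.41 to 2.57). Socs1, the feedback inhibitor of JAK kinases, had 2 and 13 UMIs (2.32, 0.45 to 5.78), and Tbk1, the kinase that activates IRF3, 15 and 34 (1.05, 0.16 to 2.05). Irf9, the DNA-binding subunit of the interferon-stimulated factor, went the other way with 35 and 19 UMIs (-0.97, -1.88 to -0.14) and was lower in all 4 pools. These sums are small and were taken from a list of many genes. Ifngr1, Ifngr2, Jak2, Stat3, Irf1, Irf2, Irf3, Irf5, Irf8, Ticam1, Ticam2, Socs3 and Pias1 had ratios from -0.47 to 0.63 with intervals that included 0.

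**Figure D3:**
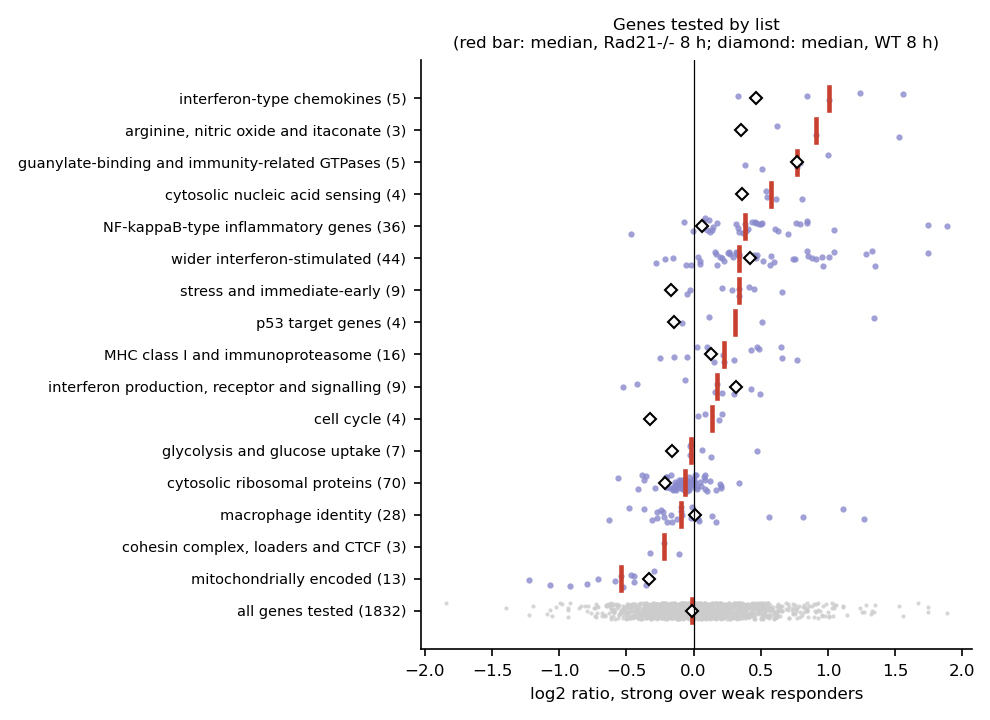
Log2 ratio of strong over weak responders (x axis) for the tested genes of each list (points, number of genes in brackets), with red bars at the list medians and diamonds at the medians of the same lists in WT 8 h cells split by the same rule (over the genes tested there, which are not the same set, and drawn for lists with at least 3). Interferon-type chemokines lie highest, with a median of 1.01, and mitochondrially encoded genes lowest, with -0.54.

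Inflammatory genes of the NF-kappaB type, which LPS induces more directly, were the largest list outside the interferon pathway with genes past 1.5-fold. Of 36 tested, 10 were higher (27.8%, against 5.57% of all genes tested) and 0 lower, and 33 had ratios above 0. In all 4 pools 19 were higher, where 10.7% of all genes tested were, and the median was 0.39 (0.34 within pools). Il12b was 64.9 CPM in the weak, 60.4 in the middle and 242 in the strong responders (1.89, 1.36 to 2.48), so only the strong responders stood apart. It was seen in 18 of 74 weak cells (24.3%, 15.1% to 35.7%) and 24 of 74 strong cells (32.4%, 22% to 44.3%), and 5 strong cells held 97 of its 141 UMIs there, so the higher sum came from few cells. Without the top cell of each group the ratio was 1.85. Il12b was 2.43 CPM in untreated and 30.4 in 2 h Rad21-/- cells and 150 in WT 8 h cells. The interleukin Il18 was spread more evenly, in 23% of weak and 47.3% of strong cells, with 22 and 81 UMIs (1.75, 1.08 to 2.52, and 1.00 within pools). Tlr2, a receptor of bacterial lipoproteins, and Birc3, an inhibitor of apoptosis, stood at -0.47 (-0.98 to 0.04) and -0.07.

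All 3 tested genes of nitric oxide and itaconate metabolism were higher, where 5.57% of all genes tested were, with a median of 0.91 (1.03 within pools). Nos2, the inducible nitric oxide synthase, stood at 85.2, 139 and 247 CPM (1.53, 1.05 to 2.05, and 1.29 within pools) and in 44.6% of weak and 60.8% of strong cells. It was at 0.607 CPM in untreated Rad21-/- cells, 0.801 at 2 h and 1280 in WT 8 h cells. Gch1, which makes the cofactor that nitric oxide synthase needs, stood at 119, 230 and 223 CPM (0.91, 0.47 to 1.37). Irg1 (Acod1), the enzyme that makes itaconate, rose from 1179 through 1341 to 1814 CPM (0.62, 0.48 to 0.77), with 0.90, 0.85, 0.55 and 0.67 in the pools. Cdkn1a, a p53-induced inhibitor of the cell cycle, stood at 139, 209 and 354 CPM (1.34, 0.96 to 1.75, and 1.22 within pools) and was the 1 of 4 tested p53 targets past 1.5-fold, with Mdm2 at 0.51 and Rrm2b at -0.08. Junb was the 1 of 9 stress and immediate-early genes past 1.5-fold, at 0.66 (0.12 to 1.23). In lists as small as these 2, the 5.57% over all genes tested can give 1 such gene. Slamf7, a receptor on activated macrophages, is in no list and stood at 70.4, 115.8 and 176.97 CPM (1.32, 0.78 to 1.91, and 0.92 within pools).

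**Figure D4:**
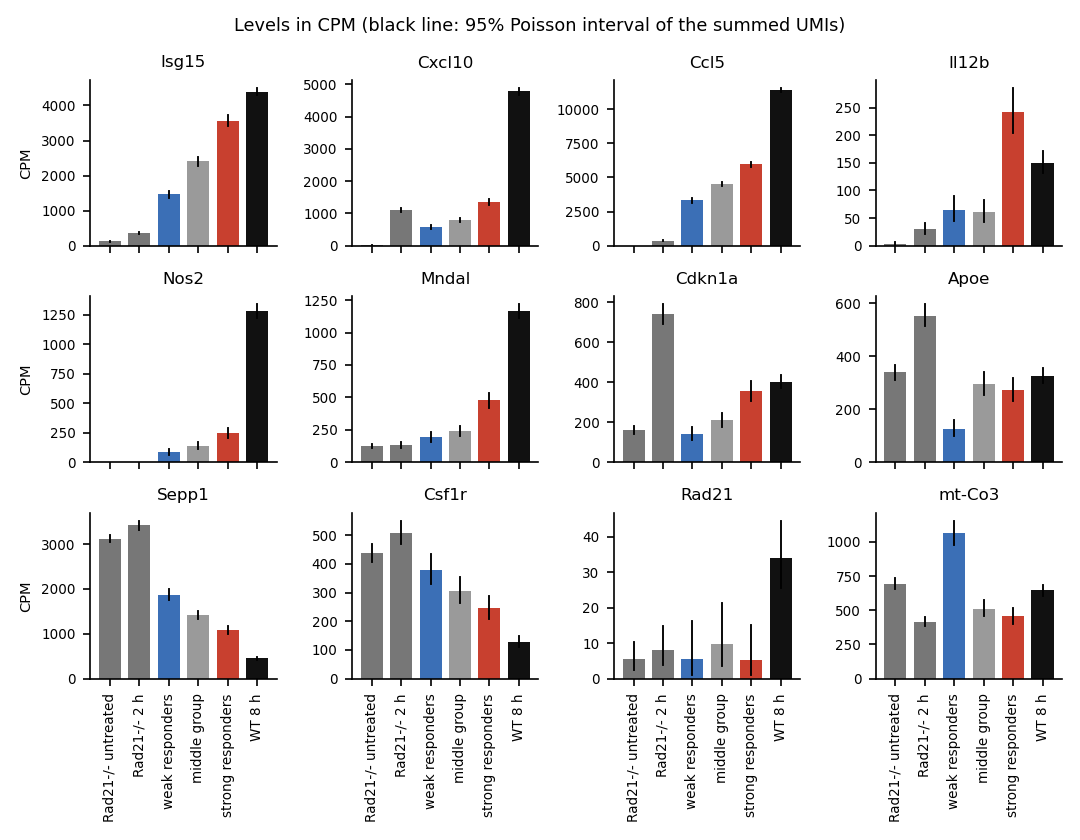
CPM of 12 genes (y axes from 0, scales differ) in untreated and 2 h Rad21-/- cells, the weak responders, the middle group and the strong responders of Rad21-/- 8 h cells, and WT 8 h cells, with 95% Poisson intervals as black lines. Isg15, Cxcl10, Ccl5, Nos2 and Mndal climb from the weak to the strong responders and are highest in WT 8 h cells, Il12b is highest in the strong responders at 242 CPM, and Sepp1 and Csf1r descend.

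Macrophage identity genes as a list lay near the background in the counts past 1.5-fold, but leaned lower on other measures. Of 28 tested, 3 were higher and 1 lower, where 5.57% and 3.0% of all genes tested were, and the other 24 were past 1.5-fold in neither direction. In all 4 pools 6 were lower and 3 higher, where 8.73% and 10.7% of all genes tested were. Ratios below 0 were found for 18 of the 28 (941 of all 1832 genes tested), and the median ratio was -0.09. The summed list had a ratio of -0.10 (-0.13 to -0.07). Csf1r, the receptor for the growth factor M-CSF on which these cultures depend, fell from 380 through 307 to 246 CPM (-0.63, -0.95 to -0.31), with ratios from -1.25 to -0.29 in the pools. It was 438 CPM in untreated Rad21-/- cells and 129.2 in WT 8 h cells. Adgre1, the macrophage marker F4/80, stood at 604, 449 and 433 CPM (-0.48, -0.72 to -0.24). It was 175 CPM in untreated Rad21-/- cells and 307 in WT 8 h cells, both below its level in each group. Sepp1 (Selenop), a secreted selenium carrier that is in no list, fell from 1870 through 1413 to 1086 CPM (-0.78, -0.93 to -0.64), lower in all 4 pools at -1.01, -1.06, -0.65 and -0.65. It was 3125 CPM in untreated Rad21-/- cells and 454 in WT 8 h cells. Its groups thus ran from the untreated level toward the WT level, as did those of Csf1r but not those of Adgre1. The lipid genes Lpl, a lipase, and Apoe, an apolipoprotein, went the other way at 1.27 (0.76 to 1.81) and 1.11 (0.70 to 1.55, and 0.72 within pools). For Apoe, 1 strong cell held 45 of 159 UMIs, and pool C gave a ratio of 0.02.

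Mitochondrially encoded genes were lower in the strong responders, with 13 of 13 below 0, 5 past 1.5-fold and a median of -0.54. Within pools the median was -0.28, and 5 of the 13 were lower in all 4 pools. Of all genes tested, 3.0% were past 1.5-fold lower and 8.73% were lower in all 4 pools. The middle group, with a summed 39743 CPM, lay below both the weak (60517) and the strong responders (44957), so there was no graded fall. Mt-Co3, a subunit of cytochrome oxidase, was at 1064, 512 and 455 CPM (-1.22, -1.44 to -1.01, and -0.41 within pools), and mt-Atp6, of the ATP synthase, at 2381, 1132 and 1136 CPM (-1.07, -1.21 to -0.93, and -0.40 within pools). Several of the other genes lowest in the strong responders are pseudogenes or gene models, among them Gm10925, a pseudogene on chromosome 1 that RefSeq lists with mt-Atp6 as a synonym (-0.997), Gm28437 (-1.09), Gm28661 (-0.61), Gm13339 (-1.40), Gm11410 (-0.84) and Gm43743 (-1.84). Reads of Gm10925 and of mt-Atp6 may not be told apart with certainty, and the other 5 had no match in RefSeq. In the pooled within-pool groups the ratios of these 6 shrank to between -0.48 and -0.33, but single pools ranged from -2.77 to 1.32, both for Gm13339.

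Of the remaining genes at the lower end, Ighm, the immunoglobulin mu constant region, stood at 206, 170 and 89.3 CPM (-1.20, -1.71 to -0.71) and was lower in all 4 pools. It was 12.9 CPM in WT 8 h cells and 176 in untreated Rad21-/- cells, and was seen in 44.6% of weak cells with no more than 13 of its 111 UMIs in 1 cell, while the B cell marker list was near 0. Efcab5, a predicted calcium-binding protein, had a ratio of -1.02 (-1.58 to -0.50), and Tial1, an RNA-binding protein of stress granules, one of -1.05 (-1.62 to -0.52) that was -0.30 within pools.

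The remaining lists had no tested gene past 1.5-fold. Of 70 tested ribosomal protein genes, 0 were past 1.5-fold either way, with a median of -0.06. Of 7 glycolysis genes, 4 cell cycle genes, 2 MHC class II genes and 3 genes for cohesin, its loaders and CTCF, 0 were past 1.5-fold, with medians of -0.02, 0.14, 0.15 and -0.22. In these small lists the 5.57% and 3.0% over all genes would give about as many. Among the 70 ribosomal protein genes those shares would give a few in each direction. Summed over all measured members, some lists did differ beyond counting error, with log2 ratios of 0.38 for the cell cycle (0.21 to 0.54), 0.33 for MHC class II (0.17 to 0.50) and 0.15 for glycolysis (0.02 to 0.28), against 0.35 for the NF-kappaB-type list (0.31 to 0.38). The median cell cycle level per cell was even, at 963 CPM in weak and 964 in strong responders. Those medians were 937 and 1040 for MHC class II, 1684 and 1930 for glycolysis, and 24817 and 31950 for the NF-kappaB-type list. For MHC class II the summed middle group (1299 CPM) lay above the strong responders (1192). Nipbl, the cohesin loader, stood at 100 and 85.9 CPM and Ctcf at 213 and 170 CPM (-0.32, -0.73 to 0.08).

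**Figure D5:**
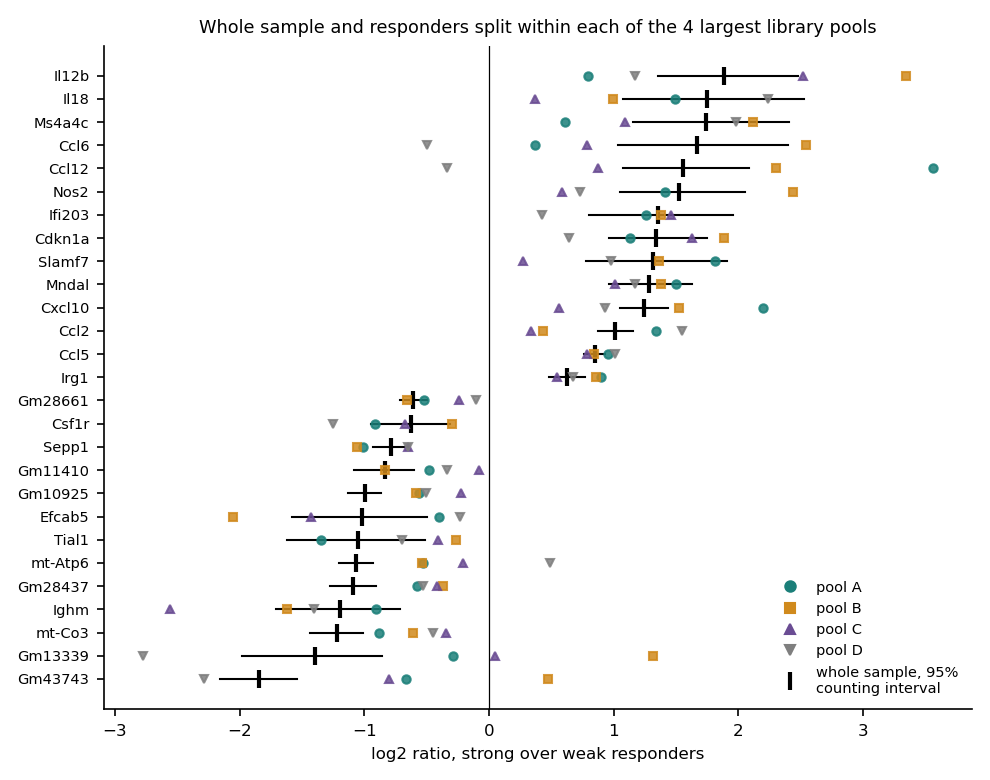
Log2 ratio of strong over weak responders (x axis) for the 24 genes with the highest and lowest ratios by their interval bounds and for Ccl5, Irg1 and Csf1r, with black marks and lines for the whole sample and its 95% counting interval and symbols for groups cut within each of the 4 largest library pools. Most higher genes lie right of 0 in every pool, with Ccl12 (-0.34) and Ccl6 (-0.49) left of 0 in pool D, and the pools are far apart for Gm43743 and Gm13339, with pool D at -2.29 and -2.77 and pool B right of 0, while mt-Atp6 is right of 0 in pool D (0.49).

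The genes whose level followed the score most closely from cell to cell, by Spearman correlation of CPM over the 222 cells, were Mndal (0.36), Ms4a4c (0.35), Ccl5 (0.33), Irg1 (0.31) and Ccl2 (0.30). The points share library pools and the total by which both measures were divided. Isg15 itself, part of the score, reached 0.90.

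WT 8 h cells were split by the same rule to see whether strong responders differ from weak ones in the same genes. Score medians there were 0.717% and 1.39% in the weak and the strong responders of 84 cells each. Of 1535 genes tested in WT cells, 72 (4.69%) were higher and 54 (3.52%) lower. Of the 1332 genes tested in both samples, 90 were higher in Rad21-/- and 31 in WT strong responders. Past 1.5-fold higher in both were 8. They are 8.89% of the 90, where 31 of all 1332 genes were higher in WT cells. They are also 25.8% of the 31, where 90 of all 1332 were higher in Rad21-/- cells. Of the 90, 70 had WT ratios above 0, against 45.1% of all 1332. Lower genes among the 1332 were 31 in Rad21-/- and 46 in WT cells. Both samples shared 7 of them, which are 22.6% of the 31 and 15.2% of the 46. Over all 1332 genes, the bases are 46 lower in WT and 31 lower in Rad21-/- cells.

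List medians were set side by side over the genes tested in both samples. For 43 genes of the wider interferon-stimulated list the median ratio was 0.34 in Rad21-/- and 0.37 in WT cells, and for 34 NF-kappaB-type genes 0.39 and 0.03. For 5 guanylate-binding and immunity-related GTPases the medians were 0.77 and 0.34, for 5 interferon-type chemokines 1.01 and 0.47, and for 3 nitric oxide and itaconate genes 0.91 and 0.35. Over all 1332 genes they were 0.01 and -0.04. Over the larger set tested in WT cells the GTPases had a median of 0.77 (13 genes). Cxcl10 was nearly as uneven in WT (1.10) as in Rad21-/- cells (1.24), whereas Il12b stood at -0.42 (-0.94 to 0.08) in WT cells and Cdkn1a at 0.01. These differences between genotypes rest on 1 sample each and were not tested. WT responders span a higher range of the score.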

How the data were processed

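Single macrophages of 6 samples, 1 per condition, were measured by MARS-Seq. Per the authors' methods, reads were mapped with GEMTools to the mouse genome (GRCm38.p4 with Gencode annotation; the labels also name FastQC), wells with over 15% spike-in reads, under 60% mapped reads or too many reads were discarded, UMIs within an edit distance of 2 were collapsed, only unambiguous reads were kept, and genes found in under 5% of cells were dropped. The deposited table holds raw UMI counts of 18429 gene rows in 1362 cells, not normalized. A symbol that occurs in 2 rows was kept as separate rows. The 8 h samples hold 2321 to 24770 UMIs per Rad21-/- cell analysed and 2529 to 22817 per WT cell, and 2 and 4 wells above 25000 UMIs, which may hold more than 1 cell, were left out. No doublet caller was run on singly sorted wells.

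From the counts, UMIs were summed over the cells of each group and divided by the group's total (CPM). Genes with at least 100 UMIs over both groups were compared, and those at least 1.5-fold apart were counted, with 0.5 UMI added to each sum. Intervals of ratios are exact conditional binomial, of levels exact Poisson and of shares exact binomial (Clopper-Pearson), at 95%. No test was possible with 1 sample per condition. Named genes are the score genes, the 12 with the highest lower bound and the 12 with the lowest upper bound of the ratio, the 2 highest and 2 lowest tested genes of each list, the members of the signalling list with Rad21, and the 5 genes most correlated with the score. The members, lists and rules were chosen with earlier results of these data known. A member of the signalling list is not reported here, and the counts of that list leave it out. Promoter windows and gene positions come from RefSeq (GRCm38.p6), where 16789 of 18429 gene rows and 98 named genes were matched. The code was tested on simulated data. Python 3.11.15, numpy 2.4.6, pandas 2.3.3, scipy 1.17.1 and matplotlib 3.10.9 were used. Alternatives were thinning of cells, library pools, other sizes of the groups, other scores, UMI minimums and sets of cells.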

Additional observations from a re-analysis of the deposited data

Results flagged for a closer look

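Ccl6 and Apoe stood out because they lay past 1.5-fold in opposite directions in the 2 genotypes. Ccl6, a chemokine, had a log2 ratio of strong over weak responders of 1.67 in Rad21-/- 8 h cells (25 and 87 UMIs) and -1.20 in WT 8 h cells (197 and 82 UMIs). In Rad21-/- cells 1 strong responder held 50 of the 87 UMIs, and without the top cell of each group the ratios were 0.60 and -1.12. Apoe, an apolipoprotein on the macrophage identity list, had ratios of 1.11 in Rad21-/- (68 and 159 UMIs) and -1.05 in WT cells (202 and 93 UMIs). Without the top cells these were 0.98 and -1.12. Both differences between the genotypes rest on 1 sample each and were not tested.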

How the results depend on the processing

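Of the 157 genes past 1.5-fold, 13 changed sign under at least 1 of 33 alternatives, among them mt-Nd2 with cells of lower mitochondrial share and Ptgs2 with all wells, and 0 of those named in the report did, although single pools turned some of them. Of the values recomputed for list medians, counts and named genes, 3813 of 4097 were close to the main value. Of the genes tested, 5.57% were higher and 3.0% lower. All cells split at the median score gave 3.07% and 1.68%, and all wells, deeper ones included, gave 3.15% and 7.19%, with a median of 0.26 for the wider interferon-stimulated list. Groups cut within each library pool gave 1.85% lower genes (33), and the score without Isg15 1.65% (30). Leaving out each pool in turn gave 4.59% to 7.75% higher and 2.67% to 4.73% lower genes, with 60 higher genes, the fewest, without pool B and the highest share of lower genes without pool D. With cells thinned to 4800 UMIs, 38 genes were higher and 32 lower, or 34 and 21 with groups cut again, over 819 and 832 genes that kept 100 UMIs. The wider interferon-stimulated list then had 17 genes tested and a median of 0.16 (0.15 cut again), and 0.33 over the 44 genes tested without thinning. Counts also moved by more than 1.5 times with cells of middle depth (43 higher), a minimum of 50 UMIs (291 and 176), a minimum of 200 UMIs (38 and 20) and, chosen after seeing the data, cells of lower mitochondrial share (51 and 30). In WT 8 h cells thinning gave 41 higher and 22 lower genes, against 72 and 54. Also chosen after seeing the data, scaling to UMIs outside mitochondrially encoded genes gave 93 and 61, leaving out the cell of the highest score 99 and 52, leaving out the top cell of each group for each gene 110 and 58, and the 4 largest pools alone, cut within each, 102 and 43. Beyond the number of genes or cells, the causes were not tested. No paired analysis was possible because each condition has 1 sample.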
